A study of Arabidopsis thaliana with 27 samples.

Results

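The genes described here are 10 Arabidopsis thaliana genes for stress-associated proteins, small zinc finger proteins that carry A20 or AN1 fingers. PMZ (AT3G28210, also called SAP12) was selected on the difference between its counts in CL37 and fae1 seeds in these libraries. The other 9 genes were chosen by family name, with earlier results of these data known, and 4 further family genes were not included. The 9 genes are SAP2 (AT1G51200), SAP3 (AT2G27580), SAP4 (AT2G36320), SAP5 (AT3G12630), SAP7 (AT4G12040), SAP9 (AT4G22820), SAP10 (AT4G25380), SAP11 (AT2G41835) and SAP13 (AT3G57480). With PMZ they make 10 of the 33602 genes in the count files. The line differences of PMZ are therefore given as a description with no test, and tests are given for the other 9 genes and for the change of PMZ with age in PDAT seeds, whose libraries took no part in its selection.

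In plants, proteins of this family are known mainly from abiotic stress, where many of their transcripts accumulate within hours of heat, cold, salt, drought or metal treatment. The A20 finger can bind ubiquitin and in some proteins carries ubiquitin ligase activity, and the AN1 finger is a zinc-binding fold often found beside it. Ubiquitin is a small protein that is attached to other proteins and marks many of them for breakdown by the proteasome.

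Developing seeds of 3 lines were compared by RNA sequencing at 7-8, 9-10 and 11-12 days after flowering. The fae1 mutant lacks a fatty acid elongase of the seed and so holds few very long chain fatty acids. CL37 seeds carry the same fae1 mutation and the castor bean fatty acid hydroxylase RcFAH12, so that hydroxy fatty acids are made. PDAT seeds are CL37 with a further castor bean gene, RcPDAT1a, for an acyltransferase that moves acyl groups from phospholipid into triacylglycerol. The fae1 mutation is thus common to all groups, and each transgenic line is a single line, so a line difference cannot be told apart from an effect of where its transgenes are inserted. Each of the 9 groups of line and stage had 3 biological replicates, A, B and C of seeds taken from frozen siliques of many pooled plants under constant light. No label says whether replicates of a group came from separate growths, so p-values measure the spread between these samples.

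The files hold between 4126510 and 22403287 counts in genes per library. Transcripts of 5 seed storage and oil body genes were found in all 27 libraries, and 4 markers of the silique wall summed to between 3.21 and 9.53 CPM (counts scaled to library size) in any library. The A library of fae1 at 7-8 days stood apart. The 5 seed genes came to 21.4% of its effective library size (gene counts scaled by TMM factors) against 1.09% and 2.44% in B and C. At 11-12 days these genes came to 30.4% to 45.1% on this scale in fae1, 17.1% to 30.2% in CL37 and 20.7% to 21.2% in PDAT. The TMM factors were 0.658 to 0.764 in fae1, 0.726 to 0.877 in CL37 and 0.795 to 0.879 in PDAT. Shares of the unscaled counts were therefore lower in each of these libraries. The part of the difference between lines in the results below was not tested. In whole seeds, fewer cells of a type and less RNA per cell cannot be told apart. The authors' deposited table, which has 1 pooled FPKM value per group, does not match the count files for fae1 at 11-12 days. It lists PMZ at 46.2 FPKM in that group against 107 in CL37, while the 3 fae1 libraries held 24 counts of PMZ in all and those of CL37 held 3990. For GSTU25, a glutathione transferase gene, the same table lists 13.4 FPKM in fae1 and 16.6 in CL37, against 0.112 ± 0.0982 and 22.0 ± 7.55 CPM in the libraries (SD, n = 3). This mismatch was not traced to a library. Replicate C held 9 counts of PMZ in fae1 and 1363 in CL37, like the other replicates of each line. Results of 11-12 days were also computed with replicate C of fae1 and of CL37 left out, and are given so where this changes a call.

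The 10 predicted proteins fall into a pair of layouts. Patterns of spaced cysteines and histidines that define each finger were searched in the coding sequences of the RefSeq annotation of TAIR10.1. PMZ, SAP11 and SAP13 have 2 AN1 patterns and no A20 pattern, and the other 7 have 1 A20 and 1 AN1 pattern each. SAP11 and SAP13 extend beyond the AN1 fingers to a length of 279 and 249 amino acids, with 2 and 1 C2H2 patterns near the end, whereas PMZ ends at amino acid 186 with no such pattern. SAP11 and SAP13 share 84.1% of aligned amino acids with each other, and PMZ shares 48.6% with SAP11 and 46.8% with SAP13. SAP7 and SAP9 share 69.0%. The longest stretch of identical coding bases between any members is 23, in SAP7 and SAP9. SAP11 overlaps the end of AT2G41840 on the same strand, and SAP7 overlaps the noncoding gene AT4G05940 on the opposite strand. How strands were used in counting is not given in the sources used here, so reads in these overlaps are uncertain.

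**Figure D1:**
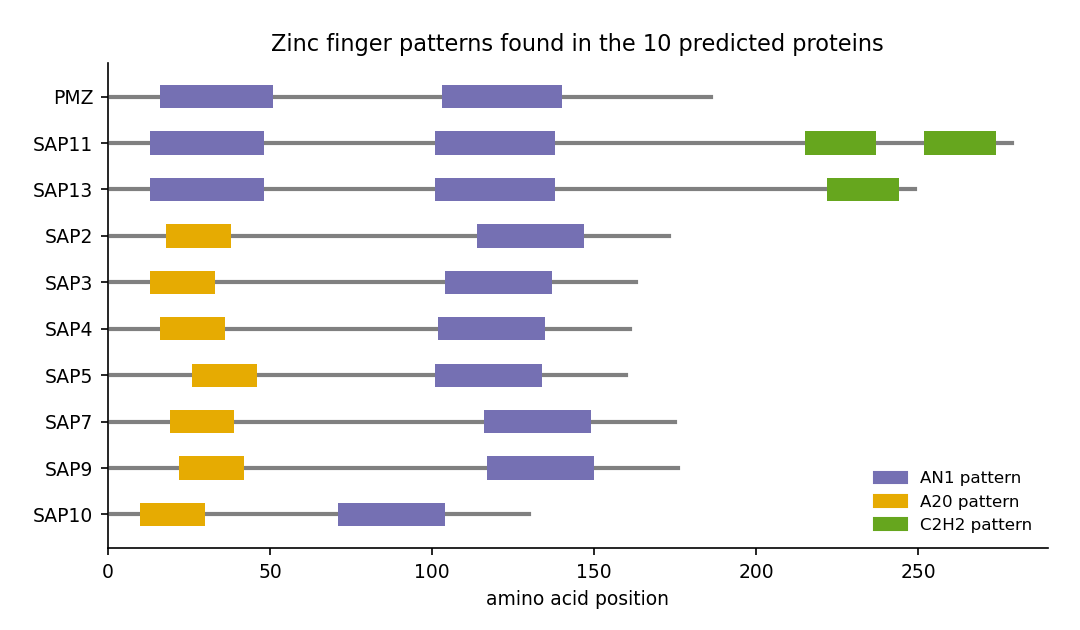
Zinc finger patterns along the 10 predicted proteins, with amino acid position on the horizontal axis and 1 grey line per protein from its first to its last amino acid. PMZ, SAP11 and SAP13 have 2 AN1 patterns each, and the other 7 have an A20 pattern before a single AN1 pattern.

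PMZ lies on chromosome 3, at 10520443 to 10521796 on the plus strand of TAIR10.1, with 2 to 3 exons in its 2 annotated transcripts. The 300 bases from 250 before to 50 after the annotated gene start are shown for PMZ and SAP10, the members with the widest range of levels, and for SAP13, which differed least. They lie at chr3:10520193-10520492 (plus strand), chr4:12976589-12976888 (minus strand) and chr3:21279355-21279654 (minus strand) and are written in the direction of the gene. Capitals mark TTGAC, the core of the W-box of WRKY factors, and ACGTG, the core of abscisic acid response elements and the G-box, on either strand.
PMZ: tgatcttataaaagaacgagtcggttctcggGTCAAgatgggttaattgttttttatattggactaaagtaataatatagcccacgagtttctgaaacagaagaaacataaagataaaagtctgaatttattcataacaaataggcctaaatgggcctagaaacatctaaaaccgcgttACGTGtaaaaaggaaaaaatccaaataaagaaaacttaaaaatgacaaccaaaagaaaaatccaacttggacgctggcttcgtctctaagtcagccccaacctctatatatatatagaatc
SAP10: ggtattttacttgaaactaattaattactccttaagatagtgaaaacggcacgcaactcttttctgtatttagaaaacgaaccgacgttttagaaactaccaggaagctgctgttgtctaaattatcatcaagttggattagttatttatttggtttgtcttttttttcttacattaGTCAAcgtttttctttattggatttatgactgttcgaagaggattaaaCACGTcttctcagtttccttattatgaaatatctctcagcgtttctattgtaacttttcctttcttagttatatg
SAP13: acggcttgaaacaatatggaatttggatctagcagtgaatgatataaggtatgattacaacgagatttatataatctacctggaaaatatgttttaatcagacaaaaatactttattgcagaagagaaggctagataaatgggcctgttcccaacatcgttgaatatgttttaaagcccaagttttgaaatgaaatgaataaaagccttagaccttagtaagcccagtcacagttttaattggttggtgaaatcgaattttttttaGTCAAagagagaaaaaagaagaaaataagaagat
PMZ has 1 TTGAC match at positions -219 to -215 from the gene start and 1 ACGTG match at -71 to -67. SAP10 also has 1 of each, at -73 to -69 and -25 to -21. In SAP13 the only match is a TTGAC after the gene start, at 17 to 21. The pair is not particular to PMZ and SAP10. SAP9, not called between CL37 and fae1 or with age, also has both, at -216 to -212 and -165 to -161. SAP2, SAP4 and SAP5 have a TTGAC before the gene start and no ACGTG. Both motifs together occur in 14.2% of the 27443 protein-coding promoters of the same length, TTGAC, with or without the other, in 50.5% and ACGTG likewise in 26.7%. TGACG, the core of TGA factor sites, was found in neither PMZ nor SAP10 and occurs in 23.1% of promoters. Among the members it was found in SAP7 and SAP9. The heat shock core GAANNTTC, present in 11.6% of promoters, was found in SAP3 and SAP11. In SAP9 1 TGACG match overlaps the ACGTG match, and no other matches of different motifs in members overlap.

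The members covered a wide range of levels. Averaged over the 27 libraries and divided by transcript length, SAP2 was the most abundant at 195 CPM per kilobase, followed by SAP5 at 68.6 and SAP7 at 30.0. SAP3 and SAP9 were alike at 28.5 each. PMZ averaged 14.9 CPM per kilobase, a mean that rests on few libraries, since its group means ran from 0.575 to 110 on this scale. SAP11 followed at 5.83, SAP4 at 3.32 and SAP13 at 2.49, and SAP10 was lowest at 0.676. In all 10 genes the highest of the 9 group means was that of CL37 at 11-12 days.

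PMZ encodes a protein of paired AN1 fingers whose shape in vitro depends on its redox state. Its transcript was scarce in young seeds of every line and in fae1 seeds of every age, and it was abundant in CL37 seeds at 11-12 days. In fae1 the 3 replicates A, B and C held 0.309, 1.04 and 0.822 CPM at 7-8 days, 0.858, 0.841 and 0.310 at 9-10 days and 1.02, 0.322 and 0.677 at 11-12 days. No fae1 library held more than 13 counts of PMZ. In CL37 the replicates held 1.82, 0.689 and 0.521 CPM at 7-8 days and 7.61, 22.2 and 1.26 at 9-10 days. At 11-12 days they held 174, 101 and 109 CPM. The lowest CL37 library at 11-12 days thus lay above every other library of the study, and at 9-10 days A and B were high while C lay close to the fae1 libraries. PDAT held 2.56, 1.46 and 2.36 CPM at 7-8 days, 0.835, 1.37 and 0.555 at 9-10 days and 24.4, 5.31 and 6.17 at 11-12 days. At 11-12 days the PDAT libraries lay below those of CL37 and above those of fae1 with no overlap, and replicate A was the highest in both transgenic lines.

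**Figure D2:**
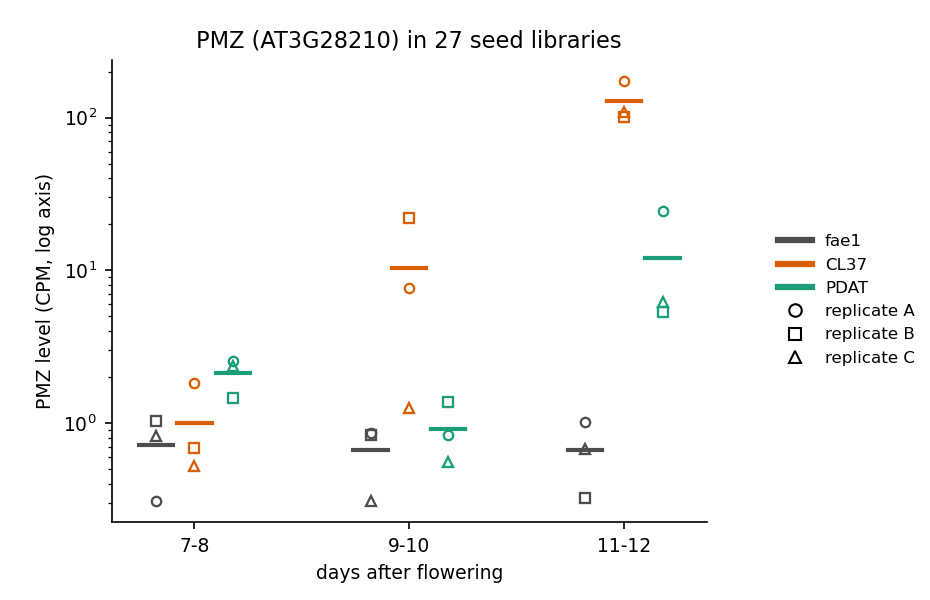
PMZ levels in CPM on a log axis, by days after flowering, for fae1 (grey), CL37 (orange) and PDAT (green). Symbols are the replicates A, B and C and bars are group means; the CL37 libraries of 11-12 days lie between 101 and 174 CPM, those of PDAT between 5.31 and 24.4, and those of fae1 at or below 1.02.

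In the order of group means, CL37 at 11-12 days stood at 128 ± 39.8 CPM (SD, n = 3), followed by PDAT at 11-12 days at 12.0 ± 10.8 and CL37 at 9-10 days at 10.3 ± 10.7. The latter means do not differ beyond their spread. PDAT at 7-8 days stood at 2.13 ± 0.589 CPM, and the 5 remaining groups lay between 0.670 and 1.01 CPM with overlapping libraries. The fitted log2 difference of CL37 from fae1 was 0.51 at 7-8 days, 3.79 at 9-10 days and 7.58 at 11-12 days, where it was 7.70 with replicate C of both lines left out. PDAT differed from CL37 by -3.44 at 11-12 days and from fae1 by 4.13. Without PDAT A these values were -4.46 and 3.11. These differences are described and not tested.

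The tested change of PMZ was that with age in PDAT. From 7-8 to 11-12 days PMZ rose there by a log2 fold change of 2.47 ± 0.63 (SE; edgeR quasi-likelihood test, Benjamini-Hochberg adjusted p = 0.00232), with no overlap between the libraries of both stages. Without PDAT A of 11-12 days the fold was 1.45 (adjusted p = 0.049). In a fit that also held each library's share of non-unique alignments it was 1.27 and the call was lost (adjusted p = 0.299). That share, in percent, was 16.6 to 19.4 in PDAT at 7-8 days and 6.43 to 15.3 at 11-12 days.

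The 8 tested genes most like PMZ across the 27 libraries were ranked by Pearson correlation of log2 CPM, which describes libraries that share line, stage and depth. GSTU25 was first with r = 0.97, and r = 0.93 without the CL37 libraries of 11-12 days. It was followed by AT1G32920, for an uncharacterized protein, AT1G18830, for a WD40 repeat protein, the transcription factor gene MYB15 and RHL41 (also ZAT12), for a C2H2 zinc finger regulator of oxidative stress, each with r = 0.96. AT5G61820, AT2G38240, for an oxygenase of the 2-oxoglutarate type, and XTH18, for a cell wall enzyme, had r = 0.95. At 11-12 days RHL41 stood at 3.55 ± 0.783 CPM in fae1, at 98 ± 22.0 in CL37 and at 31.0 ± 6.92 in PDAT (SD, n = 3). MYB15 had no count in any fae1 library of that stage, 2.82 ± 0.490 CPM in CL37 and 0.496 ± 0.221 in PDAT. Since these genes were picked for their likeness to PMZ, the order of the lines in them is no further evidence.

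The other members were less like PMZ. SAP7 had r = 0.81 with it, SAP5 0.79, SAP3 0.77, SAP10 0.74, SAP4 0.65 and SAP2 0.63 over the 27 libraries. SAP9 had 0.44, SAP11 0.39 and SAP13 0.31, so that the 2 proteins closest to PMZ in layout were the least like it in level. SAP7, the nearest of these members, ranked 378 among the other tested genes.

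At 11-12 days, 5 of the other 9 members were higher in CL37 than in fae1 and none was lower. They were SAP3, SAP4, SAP5, SAP7 and SAP10, at log2 fold changes of 0.91 to 3.56. Of all 18897 genes tested, 10.5% were called higher in this comparison. All 9 values were positive. SAP10 passed the expression filter only through the CL37 libraries of 11-12 days, so its difference follows from how it entered, and without it 4 of 8 members were called, with a median log2 fold change of 0.70 against -0.02 over all tested genes. DESeq2 called 6 of the 9, adding SAP2, and 8 of the 9 had an unadjusted p below 0.05. With fae1 A of 7-8 and of 9-10 days left out, 8 were called, adding SAP2, SAP9 and SAP11. These libraries are not part of the comparison, so calls could change only through the shared fit. The share of all genes called in that fit is not given here, and the 10.5% does not apply to it.

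SAP7 showed the smallest p of these members. Its libraries held 41.8, 47.3 and 53.1 CPM in fae1 and 162, 92.1 and 109 in CL37. All CL37 libraries lay above all fae1 libraries, with a log2 fold change of 1.35 ± 0.19 (adjusted p = 1.74e-05), and reads shared with the overlapping noncoding gene are not separated. SAP5, whose protein has ubiquitin ligase activity in vitro and whose overexpression raises drought tolerance, held 59.0, 56.6 and 60.9 CPM in fae1 and 179, 105 and 134 in CL37. The groups again did not overlap, and the log2 fold change was 1.24 ± 0.23 (adjusted p = 0.000398). The fae1 libraries of SAP5 were close together and those of CL37 were spread, with A highest and B lowest, as in SAP7.

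SAP4, at a lower level, held 5.26, 3.54 and 4.59 CPM in fae1 and 12.2, 9.54 and 11.9 in CL37. It rose by 1.32 ± 0.26 (adjusted p = 0.000835) with no overlap. SAP3 held 24.6, 24.1 and 25.6 CPM in fae1 and 56.5, 40.1 and 43.3 in CL37, a log2 fold change of 0.91 ± 0.18 (adjusted p = 0.00104). Of the called members it had the smallest change, and its groups did not overlap either. SAP10, whose overexpression raises tolerance to toxic metals and heat, was near the detection limit in fae1, with 1, 3 and 4 counts in the 3 libraries. In CL37 it gave 33, 22 and 24 counts, which is 4.96, 1.51 and 1.93 CPM. The fitted log2 fold change was 3.56 ± 0.72, given as a description, since the gene entered the test through these CL37 libraries alone, and its size depends on few counts in fae1.

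The other 4 members missed the threshold. SAP2, the most abundant member, held 305, 275 and 281 CPM in fae1 and 505, 297 and 409 in CL37, where B lay within the fae1 range (log2 fold change 0.49 ± 0.18, adjusted p = 0.0623). SAP9, whose protein binds a ubiquitin receptor of the RAD23 type, held 32.3, 33.7 and 33.9 CPM in fae1 and 53.8, 41.4 and 46.0 in CL37. Its log2 fold change of 0.50 ± 0.21 gave an adjusted p of 0.108, although the libraries did not overlap. SAP11 held 7.48, 9.01 and 7.37 CPM in fae1 and 11.9, 11.4 and 9.79 in CL37, also without overlap (0.47 ± 0.17, adjusted p = 0.0668). SAP13, which is linked to metal and drought tolerance, held 3.05, 4.75 and 4.13 CPM in fae1 and 4.96, 4.53 and 5.21 in CL37, with overlap (0.29 ± 0.22, adjusted p = 0.382). SAP11 and SAP13, the close pair of proteins with C2H2 patterns, were therefore both among the members not called.

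**Figure D3:**
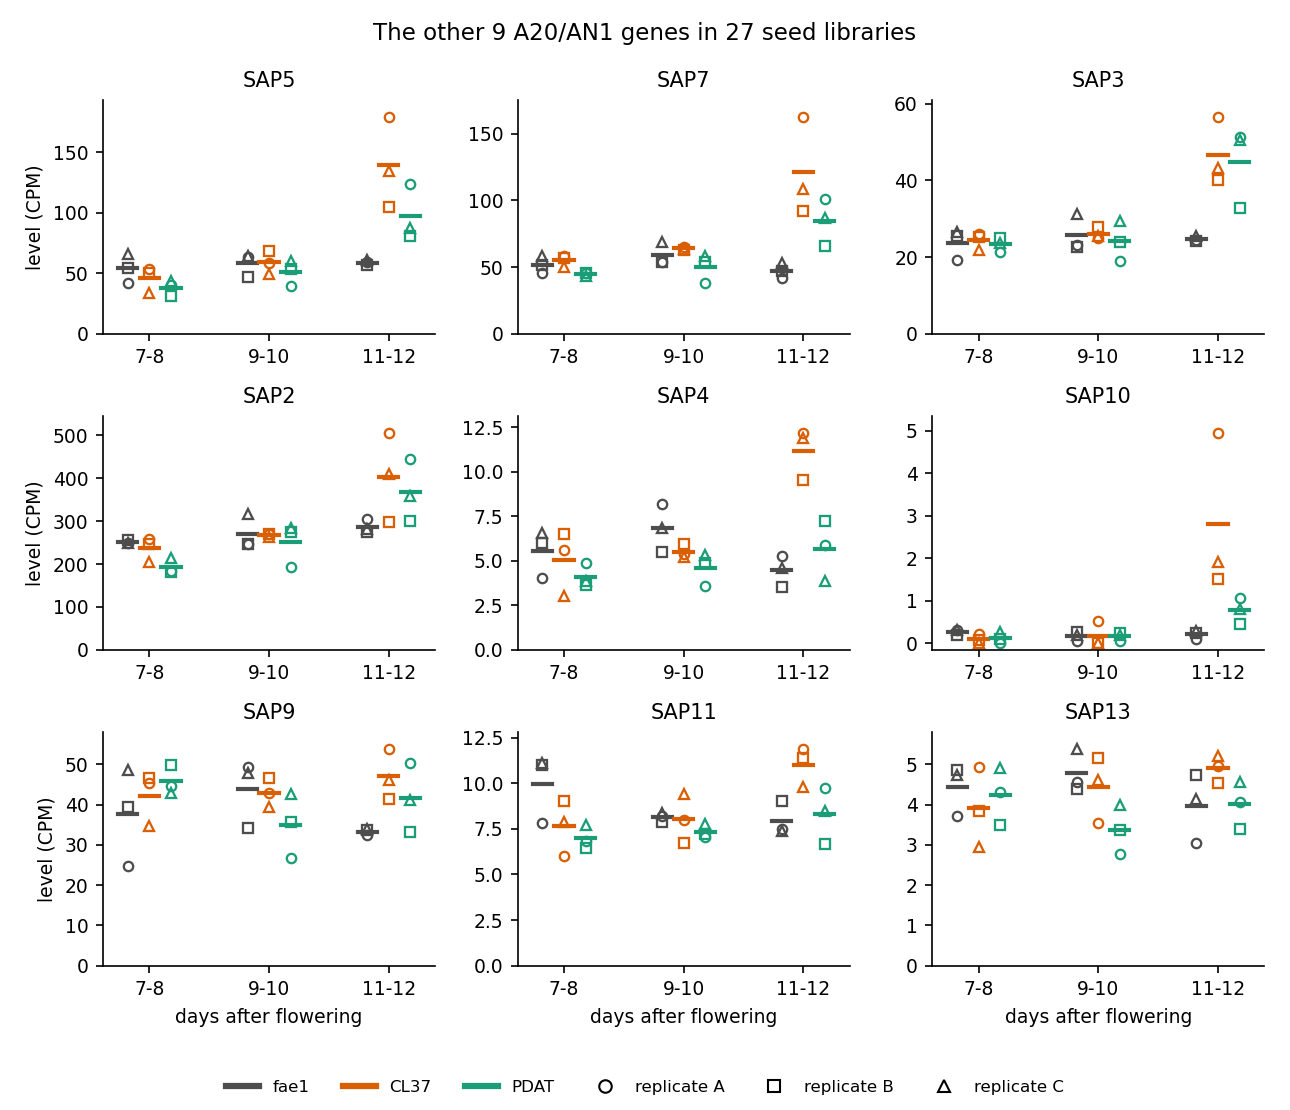
Levels in CPM of the 9 members other than PMZ, each on its own vertical scale, by days after flowering in fae1 (grey), CL37 (orange) and PDAT (green). Symbols are the replicates A, B and C and bars are group means; in SAP5, SAP7, SAP3, SAP4 and SAP10 the CL37 libraries of 11-12 days lie above all fae1 libraries of that stage.

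Replicate A was often the highest library of the members in the transgenic lines. At 11-12 days it was the highest CL37 library in 9 of the 10 members and the highest PDAT library in 8, against 3 in fae1. Replicate B was the lowest library of its group in 9 members in CL37 and in 9 in PDAT, against 5 in fae1. How many of all tested genes did the same was not counted, so nothing particular to the members is read from these counts. The 5 seed storage and oil body genes came to 17.1% of the effective library size in CL37 A and 30.2% in CL37 B. The TMM factors of these libraries were 0.877 and 0.726. The part of these genes in the result was not tested. The 5 calls were made also without the A libraries of CL37 and PDAT at 11-12 days, an alternative chosen after seeing the data, and with replicate C of both fae1 and CL37 left out. That of SAP10 still follows from how it passed the expression filter.

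At the younger stages no tested member was called between CL37 and fae1, where few genes of any kind were called, and nothing is read from these counts. At 7-8 days 0 of 9 were called between CL37 and fae1 by edgeR and by DESeq2, with 1 at an unadjusted p below 0.05, while 0.0265% of all tested genes were called. Log2 fold changes without SAP10 ran from -0.38 to 0.17. At 9-10 days 0 of 9 were called by either tool and 0 had an unadjusted p below 0.05, with 0.741% of all tested genes called, and the values ran from -0.33 to 0.12. SAP5, for example, held 63.3, 47.0 and 64.7 CPM in fae1 and 58.7, 68.8 and 49.6 in CL37 at 9-10 days, while PMZ was already at 7.61 and 22.2 CPM in CL37 A and B.

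**Figure D4:**
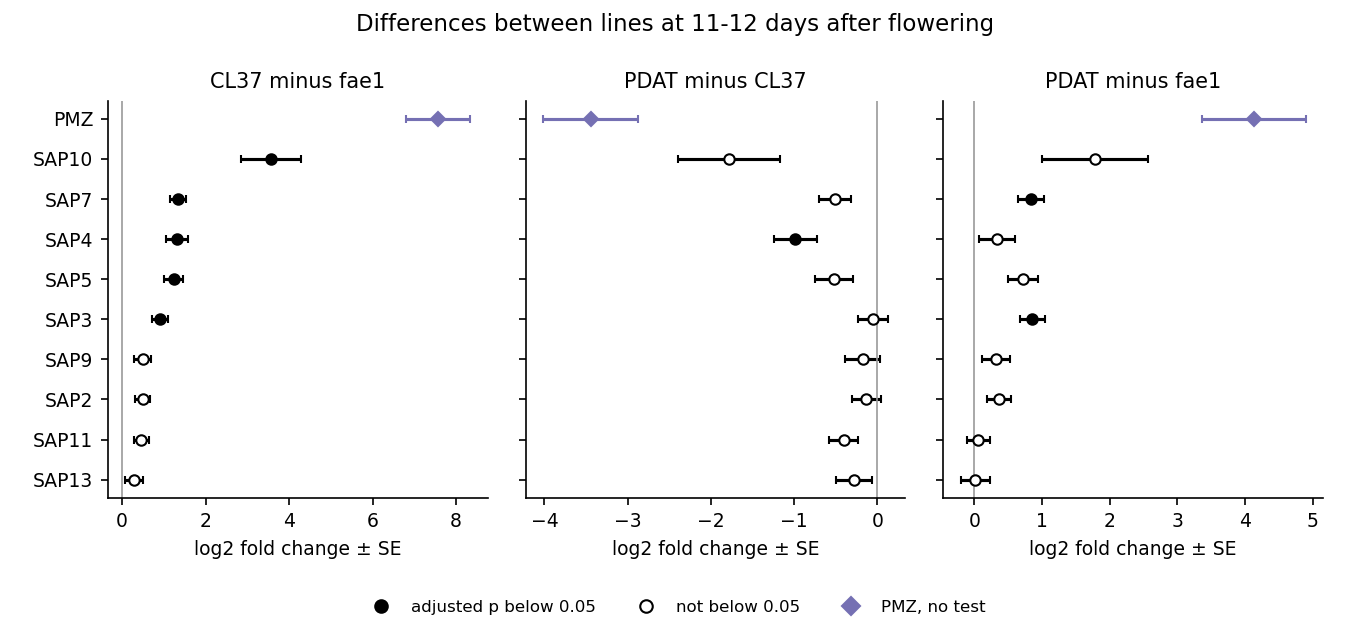
Log2 fold changes with their standard errors between lines at 11-12 days after flowering, with a scale of its own in each panel. Filled circles passed an adjusted p of 0.05, open circles did not, and PMZ (diamond) has no test; CL37 minus fae1 was positive for all members and PDAT minus CL37 was negative for all. The filled circle of SAP10, and its negative value in PDAT minus CL37, follow from its passing the expression filter through the CL37 libraries alone.

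With age, 7 of the 9 tested members rose in CL37 and 6 of all 10 in PDAT, and no change passed the threshold in fae1. Between 7-8 and 11-12 days 0 of 9 were called in fae1 by edgeR and by DESeq2, and 0 had an unadjusted p below 0.05, although 50.5% of all tested genes changed with age in these seeds. The log2 fold changes in fae1 ran from -0.33 to 0.19. Without fae1 A of 7-8 days, the library that stood apart, 1 member was called, SAP11, which was lower at 11-12 days.

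In CL37 7 of 9 members rose over the same interval, against 29.5% of all tested genes that rose, and none fell. Without SAP10, 6 of 8 rose, with a median log2 fold change of 0.85 against 0.01 over all tested genes. SAP5 rose from 53.4, 50.7 and 33.7 CPM at 7-8 days to the values of 11-12 days given above, a log2 fold change of 1.60 ± 0.23 (adjusted p = 4.14e-06). SAP7 rose by 1.13 ± 0.19 (adjusted p = 2.89e-05) from 58.5, 57.1 and 50.2 CPM. SAP4 also rose by 1.13, with an SE of 0.26 (adjusted p = 0.000657). In these genes the libraries of 7-8 and 11-12 days did not overlap, and the mean at 9-10 days was nearer that of 7-8 days. The SAP7 libraries of 9-10 days, at 65.4, 62.9 and 63.8 CPM, still lay above all those of 7-8 days. The step from 7-8 to 9-10 days was not tested. SAP3 rose by 0.93 ± 0.18 (adjusted p = 0.000162) and SAP2 by 0.77 ± 0.18 (adjusted p = 0.000856). SAP11 rose by 0.52 ± 0.17 (adjusted p = 0.0120), a call lost without CL37 A of 7-8 days. SAP10 went from 4 counts over the 3 libraries of 7-8 days to 79 (fitted log2 fold change 4.56 ± 0.79), a rise fixed by its passing the expression filter through the latter libraries alone. SAP9 and SAP13 were not called, at 0.15 ± 0.21 and 0.32 ± 0.22.

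In PDAT 6 of all 10 members rose, against 27.2% of all tested genes, and none fell. Beside PMZ these were SAP5 (1.34 ± 0.23, adjusted p = 4.35e-05), SAP2 (0.93 ± 0.18, adjusted p = 0.000161), SAP3 (0.94 ± 0.18, adjusted p = 0.000164), SAP7 (0.92 ± 0.19, adjusted p = 0.000318) and SAP10 (2.77 ± 0.83, adjusted p = 0.00758). SAP10 went from 5 counts over the 3 libraries of 7-8 days to 28, and without it 5 of 9 members rose. The call of SAP10 was lost with the share of non-unique alignments in the fit (adjusted p = 0.185), and with the compared groups alone it did not pass the expression filter. With that share in the fit the call of PMZ was lost too, and SAP4 was called. SAP2 held 183, 182 and 215 CPM at 7-8 days and 446, 300 and 358 at 11-12 days, with no overlap. SAP4 was called in CL37 and not in PDAT, where it held 4.86, 3.64 and 3.85 CPM at 7-8 days and 5.90, 7.24 and 3.89 at 11-12 days (0.44 ± 0.26, adjusted p = 0.158). The difference between CL37 and PDAT in the change with age was tested as an interaction, which called 0 of 9 members by edgeR and by DESeq2, with 0 at an unadjusted p below 0.05 and 0.704% of all tested genes called. For SAP4 it was -0.69 ± 0.37 (adjusted p = 0.484).

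**Figure D5:**
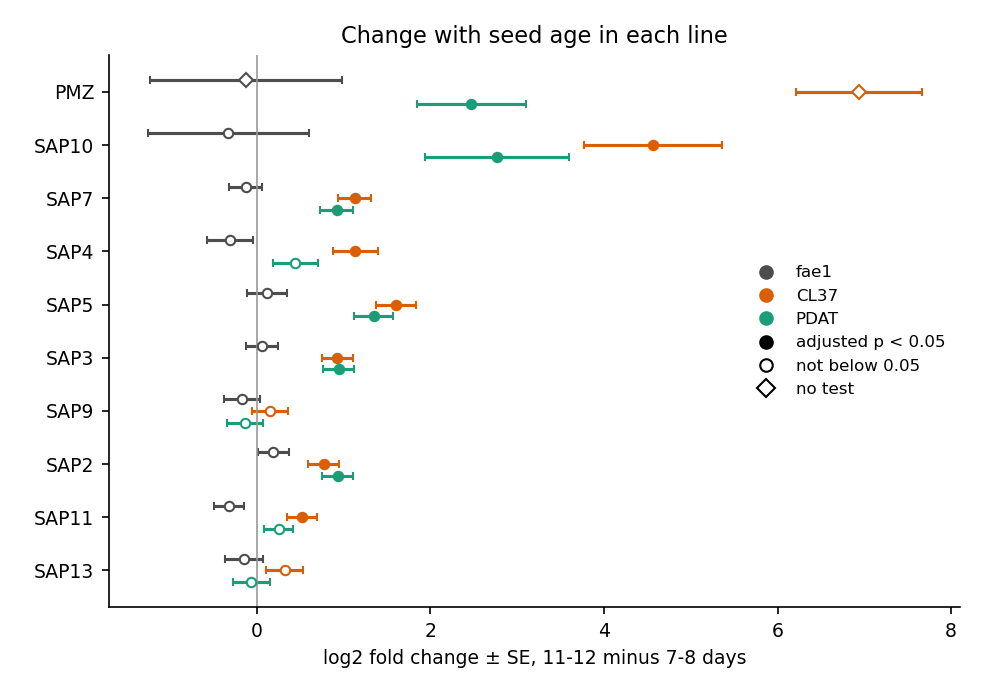
Log2 fold changes with their standard errors from 7-8 to 11-12 days in fae1 (grey), CL37 (orange) and PDAT (green). Filled circles passed an adjusted p of 0.05, open circles did not, and open diamonds have no test; the filled CL37 circle of SAP10 follows from how it passed the expression filter, and the fae1 values of the 9 tested members lie between -0.33 and 0.19.

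The same interaction between CL37 and fae1 called 6 of 9 members, all with a larger rise in CL37, against 5.51% of all tested genes. Without SAP10 it called 5 of 8. SAP5 (1.48 ± 0.32, adjusted p = 0.00545) and SAP7 (1.26 ± 0.27, adjusted p = 0.00488) were called in every alternative that was run. The interaction of SAP4 was 1.45 ± 0.37 (adjusted p = 0.0196), and those of SAP3 and SAP11 were close to the threshold at 0.87 ± 0.26 (adjusted p = 0.0441) and 0.85 ± 0.24 (adjusted p = 0.0363). The calls of SAP3, SAP4, SAP10 and SAP11 were lost without single libraries, and the count fell to 2 without fae1 C of 7-8 days, CL37 C of 7-8 days or CL37 A of 11-12 days.

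Between PDAT and CL37 at 11-12 days, SAP4 was lower in PDAT and the other 8 tested members were not called, while 2.55% of all tested genes were called lower. It held 12.2, 9.54 and 11.9 CPM in CL37 and 5.90, 7.24 and 3.89 in PDAT, with no overlap (log2 fold change -0.99 ± 0.26, adjusted p = 0.0354). This call was lost without CL37 A or C or PDAT A or C, with upper-quartile factors, with the compared groups alone and with replicate C of fae1 and CL37 left out. All 9 values were negative, with a median of -0.41 against 0.02 over all tested genes, and 5 had an unadjusted p below 0.05. These include SAP10, whose lower value in PDAT follows from its passing the expression filter through the CL37 libraries alone. Without SAP10 the 8 values ran from -0.99 to -0.05, with a median of -0.34.

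SAP10 gave 10, 5 and 13 counts in PDAT, or 1.07, 0.458 and 0.803 CPM, all below the CL37 libraries through which it entered the test (-1.78 ± 0.61, not called). SAP5 held 123, 80.5 and 87.4 CPM in PDAT, a range that overlapped that of CL37 (-0.52, adjusted p = 0.366). SAP7 held 101, 66 and 87.0 CPM (-0.51, adjusted p = 0.223), also with overlap. SAP3 was at 51.3, 32.7 and 50.5 CPM in PDAT, and its value of -0.05 ± 0.18 was the smallest. At 7-8 and 9-10 days 0 of 9 members were called between PDAT and CL37 by either tool and 0 had an unadjusted p below 0.05, with 0.0106% and 0.0212% of all tested genes called.

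Compared with fae1, whose libraries also serve in the comparison with CL37, PDAT seeds of 11-12 days had 2 of 9 members called higher, against 4.93% of all tested genes. SAP3 rose by 0.86 ± 0.18 (adjusted p = 0.00504) and SAP7 by 0.84 ± 0.19 (adjusted p = 0.00858), and neither overlapped fae1. The call of SAP7 was lost without fae1 A or PDAT A, each of 11-12 days. SAP5 missed the threshold at 0.72 ± 0.23 (adjusted p = 0.0566), although all PDAT libraries lay above all fae1 libraries, and DESeq2 called it. SAP4, SAP9, SAP11 and SAP13 had values of 0.01 to 0.33. At 7-8 days 0 of 9 were called by edgeR and by DESeq2, 3 had an unadjusted p below 0.05 and 8.64% of all tested genes were called. Without fae1 A of 7-8 days, SAP5 and SAP11 were called lower in PDAT. At 9-10 days 0 of 9 were called by either tool, 2 had an unadjusted p below 0.05 and 0.09% of all tested genes were called.

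The family holds 4 further genes that the selection did not include, SAP1 (AT1G12440), SAP6 (AT3G52800), SAP8 (AT4G14225) and SAP14 (AT5G48205). SAP6, whose protein shares 78.2% of aligned amino acids with that of SAP4, held 11.0, 13 and 13.1 CPM in fae1 and 42.8, 34.3 and 26.1 in CL37 at 11-12 days. It rose by 1.47 ± 0.18 (adjusted p = 1.71e-06) and, in PDAT, was above fae1 by 1.06 (adjusted p = 0.000452). SAP6 had the highest correlation with PMZ in the family, r = 0.85. SAP1 held 65.5, 78.0 and 73.7 CPM in fae1 and 128, 98.2 and 108 in CL37, a log2 fold change of 0.62 ± 0.15 (adjusted p = 0.00446). SAP14 gave 1 count in 27 libraries and SAP8 gave none, which allows up to 3 counts or 0.00893 CPM over all libraries, for counting error only.

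The other genes of ubiquitin tagging were described by a list of 17 genes for polyubiquitin, RAD23 receptors, ligases and the reported SAP5 target ENO2, of which 14 were tested. Like the members, this list was chosen with earlier results of these data known, so its direction is no independent evidence. At 11-12 days 8 of the 14 were higher in CL37 than in fae1 and none was lower, against 10.5% of all tested genes called higher. The median log2 fold change of the list was 0.63 against -0.02 over all tested genes. RGLG1, for a RING-type ubiquitin ligase, went from 30.1 ± 3.03 to 101 ± 24.7 CPM (1.75, adjusted p = 2.83e-07), and UBQ3, for polyubiquitin, from 448 ± 34.9 to 1149 ± 113 (1.36, adjusted p = 1.02e-06). Polyubiquitin genes are made of near-identical repeats, so the counting could split their reads and UBQ3 is uncertain. The same limit holds for UBQ10, UBQ11 and UBQ14, which with UBQ3 are among the 8 called. ATL31, for a membrane ubiquitin ligase, was higher by 1.72 (adjusted p = 6.57e-05). RAD23D, whose product is the partner of the SAP9 protein, stood at 169 ± 7.64 CPM in fae1 and 168 ± 22.1 in CL37 and was not called (adjusted p = 0.977). PDAT was lower than CL37 in 5 of the 14, against 2.55% of all tested genes, and higher than fae1 in 2, against 4.93%. The 5 include UBQ3 and UBQ14 and the 2 include UBQ3, with the same limit.

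A second list held 19 genes of the response to foreign compounds and reactive oxylipins. It was written with earlier results of these libraries known, so its direction is no independent evidence. At 11-12 days 14 of the 19 were higher in CL37 than in fae1 and none was lower, against 10.5% of all tested genes called higher (median log2 fold change 2.34 against -0.02). PDAT was lower than CL37 in 10, against 2.55% of all tested genes, and higher than fae1 in 10, against 4.93%. NAC102, a transcription factor gene, went from 3.36 ± 0.581 to 51.2 ± 8.54 CPM (3.93, adjusted p = 8.06e-11). GSTU19, for a glutathione transferase, went from 231 ± 7.95 to 1166 ± 129 (2.34, adjusted p = 1.34e-09), and GSTU7 rose by 3.43 (adjusted p = 4.09e-09). The genes for the TGA factors TGA2, TGA5 and TGA6 and their partner SCL14, which act on many such targets, were not called, with log2 fold changes of -0.37 to 0.25.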

How the data were processed

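Seeds of 3 lines at 3 stages, with 3 replicates each, gave 27 libraries made with a TruSeq mRNA kit, per the labels. For each library the authors deposited a file of raw read counts over annotated genes. Their table of FPKM values, deposited with 1 pooled value per group and no spread, is used only for values named as theirs. Tools named in the submitters' processing notes are TopHat2 2.0.3, Cufflinks 2.0.1, HTSeq 0.5.4p3, Trimmomatic 0.22 and bcl2fastq 1.8.2, with TAIR10 as the build; settings are not given in the sources used here. Between 4.68% and 20.5% of a file's total stood in 5 summary lines that name no gene and entered neither library sizes nor tests.

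Counts were fitted over all 27 libraries with edgeR 4.0.16 and limma 3.58.1 in R 4.3.3: TMM factors, filterByExpr with the 9 groups (18897 genes left) and robust quasi-likelihood tests of contrasts, 2-sided, tested on simulated data first. P values were adjusted by Benjamini-Hochberg over all tested genes, and genes below 0.05 are called. SE is the fold divided by the root of the test statistic. CPM are counts scaled to the effective library size, and levels between genes are compared per kilobase of exon. DESeq2 1.42.0 was the other tool. Chi-square tests of replicate pairs gave 2.75 to 236 per degree of freedom, so no pair agreed within counting error and no library was counted as a repeat of another. Few counts limit the precision of SAP10 and of PMZ in fae1.

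The members and lists were chosen with earlier results of these data known. Genes named are the members, the other 4 family loci and the 8 genes most correlated with PMZ in log2 CPM (prior count 2). Up to 3 called genes per list with the smallest p at 11-12 days are also named. RAD23D, UBQ10, UBQ11, UBQ14, the TGA factors and SCL14 were named after their values were seen. Symbols, gene models and promoter bases come from RefSeq on TAIR10.1; SAP numbers not in that table follow the published family naming. All 27973 loci compared overlap the authors' positions, and 42.6% share a start or an end. Proteins were aligned end to end with Biopython 1.88. Alternatives were other scalings, no expression filter, a covariate, a replicate block, the compared groups only, and left-out libraries.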

Additional observations from a re-analysis of the deposited data

Results flagged for a closer look

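In 6 members the difference between CL37 and fae1 was not the same at 11-12 days as at 7-8 days, by the interaction term of the edgeR fit over all genes. The change of the log2 difference was 1.48 for SAP5 (adjusted p = 0.00545), 1.26 for SAP7 (adjusted p = 0.00488) and 1.45 for SAP4 (adjusted p = 0.0196). It was 0.87 for SAP3 (adjusted p = 0.0441) and 0.85 for SAP11 (adjusted p = 0.0363). For SAP10 it was 4.89, but this gene passed the expression filter only through the CL37 libraries of 11-12 days, so a larger rise in CL37 was built in and the value is a description. DESeq2 called 5 of the 6 and gave no adjusted p for SAP10. For SAP11 the value is made of a lower mean in CL37 at 7-8 days (7.66 ± 1.51 against 9.97 ± 1.85 CPM in fae1) and a higher one at 11-12 days (11.0 ± 1.09 against 7.95 ± 0.916, SD, n = 3). SAP4, SAP5 and SAP10 also had lower fitted levels in CL37 at 7-8 days, by -0.13, -0.24 and -1.33 in log2 against -0.38 for SAP11. None of these was called at that stage.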

How the results depend on the processing

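The settings were compared over 14 counts of called members and 50 log2 fold changes, many of these chosen for being called. Outside the settings that leave out a single library, 129 of 140 counts and 461 of 497 folds were labelled the same. A count kept this label within a set ratio of the reported count, so the called members could still change. Tested folds had to keep their direction and their side of the threshold. Untested PMZ folds had to keep their direction and move by less than the replicate spread. The 5 members called between CL37 and fae1 at 11-12 days were called in every setting. For SAP10 this adds nothing, since its call follows from how it passed the expression filter. Without both fae1 A libraries of 7-8 and 9-10 days 8 were called, adding SAP2, SAP9 and SAP11. Those libraries lie outside this comparison and act only through the shared fit, for which the share of all genes called is not given here. For PDAT minus CL37 at 11-12 days the count of 1 (SAP4) went to 0 with upper-quartile factors, with the compared groups only, without replicate C of fae1 and CL37, without replicate A of CL37 and PDAT (a setting chosen after seeing the data), and, in a range of 0 to 1, without single libraries (CL37 A or C, PDAT A or C). For PDAT minus fae1 at 7-8 days 2 members were called without fae1 A (range 0 to 2), and at 11-12 days 1 to 3 without single libraries. The change with age in fae1 gave 1 call, SAP11, with upper-quartile factors and without fae1 A of 7-8 days (range 0 to 1). The interaction of CL37 and fae1 with age called 3 with the compared groups only, 3 without replicate C of both lines, 2 without replicate A of CL37 and PDAT, and 2 to 6 without single libraries. Reversed folds were small: SAP3 in PDAT minus CL37 at 11-12 days was 0.0041 with upper-quartile factors and -0.16 to 0.13 without single libraries, SAP2 in the same comparison was -0.31 to 0.059, and PMZ with age in fae1 was -0.51 to 0.22. The rise of SAP11 in CL37 lost its call with upper-quartile factors (adjusted p = 0.0698), with the compared groups only and with the share of non-unique alignments in the fit (adjusted p = 0.125). That of SAP10 in PDAT lost its call with the last (2.19, adjusted p = 0.185), and with the compared groups only the gene did not pass the expression filter. Where no value above shows a cause, the cause was not tested.

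The replicate letters did not pair the samples throughout, since 34 of 108 same-letter correlations of deviations exceeded 0.1 (range -0.54 to 0.54) and all 3 letters did so in 2 of 36 pairs of groups. Between CL37 and PDAT at 11-12 days the correlation was 0.38 for A, 0.21 for B and -0.14 for C. It was -0.32 for CL37 A with PDAT B and -0.36 for CL37 B with PDAT A. A shared source of these A and B libraries was not tested. A replicate block moved no count: 5 members between CL37 and fae1 at 11-12 days, 1 between PDAT and CL37, 2 between PDAT and fae1, 7 with age in CL37, 6 with age in PDAT, 6 in the interaction, and 0 elsewhere. Limits of depth touch SAP10, with 0 to 8 counts per library outside the CL37 and PDAT libraries of 11-12 days, and PMZ in fae1, with 3 to 13.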
